A study of Homo sapiens with 6 samples.

Results

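The collagen genes of BT549 cells were described here across DMSO and AS1842856 treatment. They were chosen by name alone, as the genes whose Ensembl 94 symbol is COL, a type number, A and a chain number, and 44 of the 58735 genes in the count table met this rule. BT549 cells are a widely used established line of basal-like breast cancer. AS1842856 is a small molecule used as an inhibitor of FOXO1, a forkhead transcription factor. RNA-Seq was available for 3 libraries of cells treated with DMSO and 3 of cells treated with AS1842856 for 48 h, and each group has replicates lettered A, B and C. The sample labels give a dose of 200 nM, whereas the text of the study gives a higher one, and this was not resolved. All 6 libraries came from 1 parental line with no genetic change, and the study calls the replicates biological.

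Collagens are secreted or membrane-anchored proteins in which 3 chains wind into a triple helix. Along the helix glycine recurs at a fixed spacing of triplets (Gly-X-Y), because only glycine fits at its centre. Fibrillar collagens form the tensile fibrils of connective tissue, type IV forms the network of basement membranes, type VI forms beaded filaments around cells, and fibril-associated collagens (FACIT) decorate the surface of fibrils. Many types are built from different chains that are encoded by separate genes. In breast tumors, collagen is made by stromal fibroblasts and also by carcinoma cells with mesenchymal features.

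The libraries held between 15289500 and 22981832 counts, and 3 counts, taken as the detection limit, corresponded to between 0.131 and 0.196 CPM (counts scaled by the total of the library, with TMM factors). Levels in FPKM are the deposited values, which divide by gene length and library size. The mesenchymal markers VIM, CDH2, SPARC and FN1 were high in every library but moved with treatment. They summed to between 537.8 and 555.7 FPKM in DMSO and between 451.1 and 458.1 FPKM with AS1842856, and 3 of the 4 fell (log2 fold change -0.34 for VIM, -0.19 for CDH2 and -0.47 for SPARC) while FN1 rose (1.13). The luminal markers EPCAM, CDH1, KRT8 and KRT18 were low and also moved. Their summed level was between 15.6 and 17.6 FPKM in DMSO and between 1.63 and 1.73 FPKM with AS1842856, and of the 4 genes, the 2 that could be tested (KRT8 and KRT18) both fell. Of the receptor genes ESR1, PGR and ERBB2, ESR1 was listed at 0, and ERBB2, the 1 tested, went from 4.501 to 2.41 FPKM on average. Of the blood and endothelial markers, PECAM1 was listed at 0, as was CDH1 among the luminal ones, and PTPRC was called higher at between 0.0759 and 0.169 FPKM in DMSO and between 0.287 and 0.389 FPKM with AS1842856. The part of these markers in the results that follow was not tested. The libraries are bulk, so fewer cells that express a gene cannot be told apart from less RNA per cell.

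Of the 44 collagen genes, 26 had enough reads to be kept and were tested among 14338 genes with edgeR's quasi-likelihood test (adjusted p under 0.05 by the Benjamini-Hochberg method over all genes tested). Values after SE are standard errors of the log2 fold change. At this threshold 7 collagen genes rose, 15 fell and 4 were not called. Of all genes tested, 56% were called, 27.6% as higher and 28.4% as lower. The median log2 fold change was -0.41 over the 26 collagen genes and 0.0030 over all genes tested. Called changes of 1 log2 unit or more were found in 12 collagen genes, 4 higher and 8 lower, against 10.6% of all genes tested (4.27% higher and 6.33% lower). In 22 of the 26 genes the CPM values of the groups did not overlap, against 59.9% of all genes tested. DESeq2 called 22 collagen genes, and 36.8% of the 18482 genes to which it gave an adjusted p. For 1 gene alone, the smallest two-sided p of an exact permutation test with 3 libraries against 3 is 0.10.

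**Figure D1:**
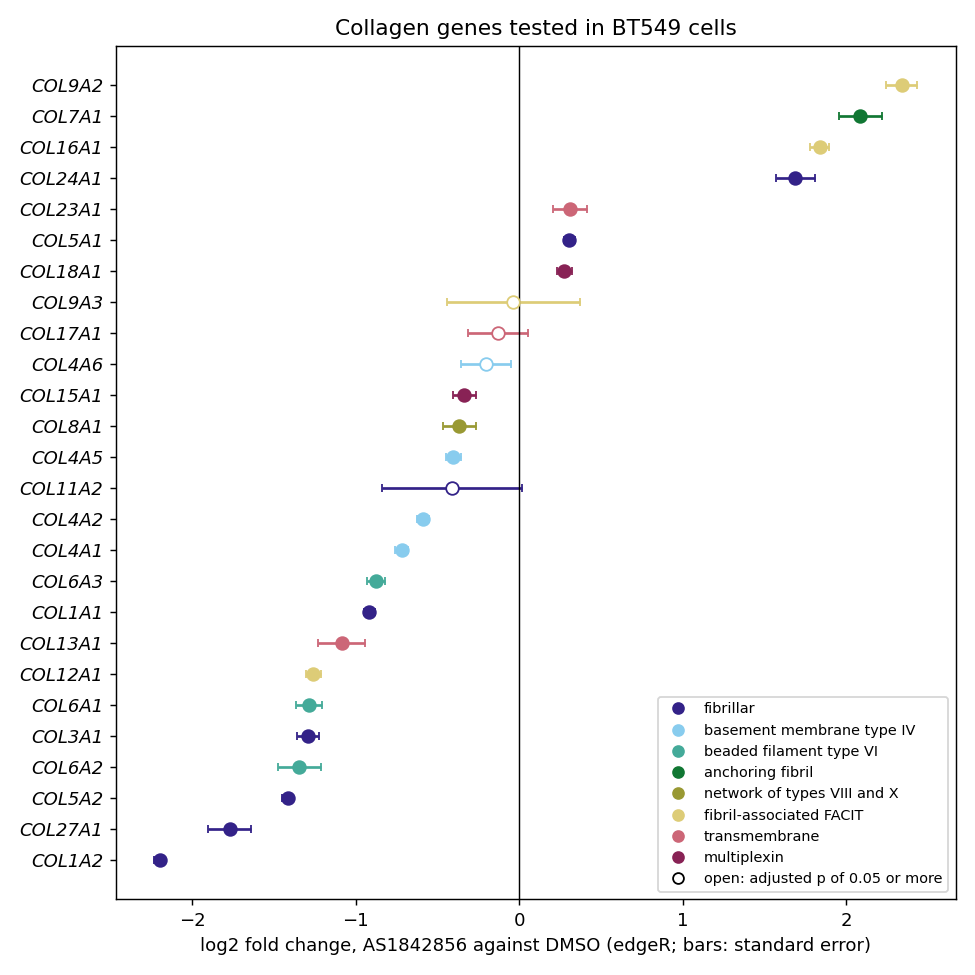
Log2 fold change of the 26 tested collagen genes with AS1842856 against DMSO, colored by structural class, with bars of 1 standard error; filled points had an adjusted p under 0.05 (edgeR). The values run from -2.20 for COL1A2 to 2.34 for COL9A2, and COL9A2, COL7A1, COL16A1 and COL24A1 stand apart above 1.

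The repeat that gives these proteins their helix can be read directly in the coding exons. Below is 1 exon of 54 bases from COL1A2, the collagen gene that fell most, and 1 from COL9A2, which rose most, with the glycine codons (GGN) in capitals. COL1A2 exon 9 lies at chr7:94404839-94404892 on the plus strand and COL9A2 exon 5 at chr1:40312731-40312784 on the minus strand (GRCh38, GENCODE release 29).
COL1A2 exon 9: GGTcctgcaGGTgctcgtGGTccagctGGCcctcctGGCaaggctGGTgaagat
COL9A2 exon 5: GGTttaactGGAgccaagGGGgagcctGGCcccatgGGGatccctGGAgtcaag
Each exon holds 6 glycine triplets and nothing else, since the exon begins and ends with a whole triplet. In the longest annotated coding transcript, COL1A2 had 24 coding exons of exactly 54 bases and COL9A2 had 14. The longest unbroken run of triplets that begin with GGN was 339 in COL1A2 and 113 in COL9A2. Over the 11 fibrillar genes the longest run lay between 216 and 343 triplets, and over the 33 other collagen genes between 23 and 113.

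The fibrillar class accounted for most collagen signal, and 8 of its 11 genes were tested. Of these, 5 fell, 2 rose and 1 (COL11A2) was not called, with a median log2 fold change of -1.10. Over all genes tested, 28.4% were called lower and 27.6% higher. COL1A2 (ENSG00000164692, chromosome 7 from 94394561 to 94431232) encodes the alpha2 chain of type I collagen, the main fibril of bone, skin and tendon. It held 1861, 1776 and 1701 CPM in the DMSO libraries (A, B and C) and 384, 382 and 397 CPM in the AS1842856 libraries. All 3 treated values were far below the 3 controls, and the fall was 4.59-fold, a log2 fold change of -2.20 (SE 0.03, edgeR adjusted p = 3.14e-152). The alpha1 chain of the same protein is encoded by COL1A1 (ENSG00000108821, chromosome 17 from 50183289 to 50201632), with 879, 823 and 809.5 CPM in DMSO and 465, 419.7 and 447 CPM with AS1842856. The groups did not overlap here either, but the log2 fold change was smaller, at -0.92 (SE 0.03, edgeR adjusted p = 7.55e-68).

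COL3A1 (ENSG00000168542, chromosome 2 from 188974320 to 189012746), whose product forms fibrils with type I collagen in extensible tissue, had 54.4, 49.7 and 55.9 CPM in DMSO and 21.1, 20.6 and 24.1 CPM after treatment. It fell by 1.29 on the log2 scale (SE 0.07, edgeR adjusted p = 2.69e-48), with no overlap. COL5A1 and COL5A2 encode the chains of type V collagen, which lies within type I fibrils and helps to start and limit their growth. COL5A2 (ENSG00000204262, chromosome 2 from 189031896 to 189225312) held 598, 569.6 and 565 CPM in DMSO and 215, 222 and 212 CPM with AS1842856, a log2 fold change of -1.42 (SE 0.04, edgeR adjusted p = 1.82e-106). COL5A1 (ENSG00000130635, chromosome 9 from 134641774 to 134844843) moved the other way, from 778, 719 and 681 CPM to 875, 903 and 915 CPM. Its rise was small next to the fall of its partner, with a log2 fold change of 0.31 (SE 0.03, edgeR adjusted p = 2.27e-15), although every treated library was above every control.

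COL27A1 and COL24A1 encode fibrillar chains known from cartilage and bone. Their longest runs were the shortest of the fibrillar class, at 217 triplets in COL27A1 and 216 in COL24A1. They changed in opposite directions. COL27A1 (ENSG00000196739, chromosome 9 from 114155560 to 114312511) fell from 14.7, 14.7 and 14.2 CPM to 5.64, 3.50 and 3.81 CPM, a log2 fold change of -1.77 (SE 0.13, edgeR adjusted p = 1.27e-29). COL24A1 (ENSG00000171502, chromosome 1 from 85729233 to 86156943) rose from 4.60, 6.06 and 5.65 CPM to 17.9, 17.0 and 17.2 CPM, a log2 fold change of 1.69 (SE 0.12, edgeR adjusted p = 7.33e-32). COL11A2, a cartilage chain, was near the limit of the filter with between 7 and 18 counts per library, and its log2 fold change of -0.41 (within 2 standard errors from -1.27 to 0.45) was not called.

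**Figure D2:**
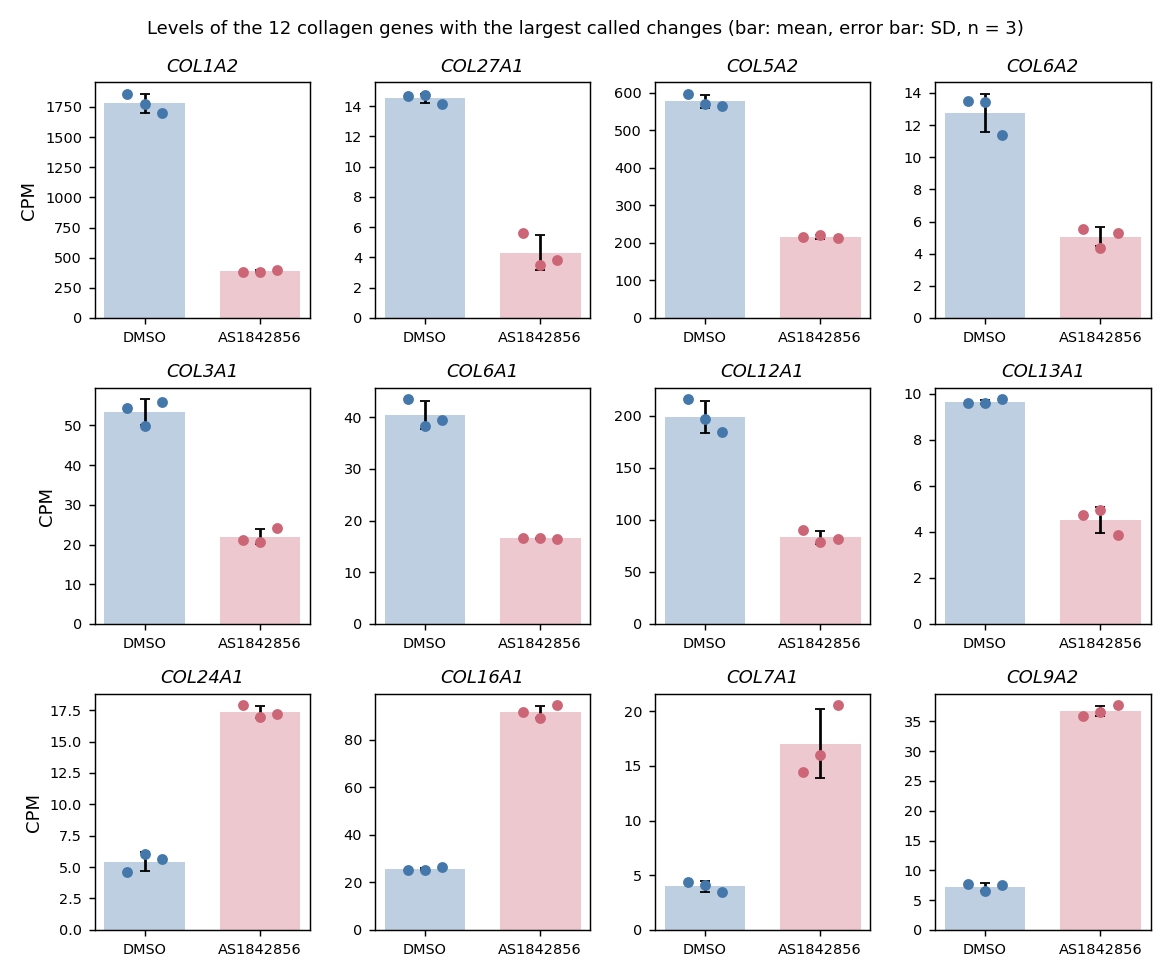
CPM of the 12 collagen genes that passed the test with a log2 fold change of at least 1 in size, with 1 point per library, bars for the mean and error bars for the SD (n = 3 per group); blue is DMSO and red is AS1842856. Each panel has its own axis from 0, and in every panel the 3 treated points lie wholly on one side of the 3 controls.

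The size of the change in genes of low level depended on the scale. On log2(FPKM + 1), which understates it, limma called the same 12 genes, but only 7 of them at 1 or more in size. The values of the other 5 were 0.89 for COL7A1, -0.64 for COL27A1, 0.84 for COL24A1, -0.58 for COL13A1 and -0.79 for COL6A2. On log2(FPKM + 0.1) all 12 were at 1 or more.

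Levels of different genes were compared on the FPKM scale, which divides by length. In DMSO, COL1A2 was the most abundant collagen transcript at 158.5 ± 7.24 FPKM (SD, n = 3), followed by COL1A1 at 84.7 ± 3.83, COL5A2 at 76.99 ± 2.47 and COL5A1 at 64.5 ± 4.40. With AS1842856 the order was different. COL5A1 came first at 79.7 ± 1.73 FPKM, and COL1A1 (44.9 ± 2.33), COL1A2 (34.6 ± 0.692) and COL5A2 (28.8 ± 0.701) followed. Within each group, no 2 neighbors in these orders of 4 had overlapping libraries. The orders also rest on the lengths used, the union of all annotated exons (11.2 kb for COL5A1 and 7.45 kb for COL5A2). In CPM, which does not divide by length, COL5A1 was above COL5A2 in DMSO, with means of 726 and 577. COL4A2 and COL12A1, at 18.5 ± 0.577 and 15.8 ± 1.27 FPKM, came next in DMSO, and COL18A1 and COL4A2, at 14.4 ± 0.692 and 12.3 ± 0.529 FPKM, came next with AS1842856.

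Summed over the 39 collagen genes listed in the FPKM tables, the FPKM was 518.4, 486.2 and 474.6 in the DMSO libraries and 277.1, 275.6 and 283.7 in the AS1842856 libraries. The sum was lower in each treated library than in each control. As a share of the FPKM of all genes, collagens took 0.191% ± 0.00793 (SD, n = 3) in the controls and 0.107% ± 0.00174 (SD, n = 3) after treatment. Without COL1A2 the shares were 0.129% and 0.0940%, so the difference of -0.0834 percentage points became -0.0354. Within the collagen total, type I chains went from 49.3% ± 0.215 to 28.5% ± 0.805 and type V chains from 28.7% ± 0.0655 to 38.9% ± 0.777. FACIT genes together went from 4.16% ± 0.0722 to 9.11% ± 0.170. These shares describe the mixture of transcripts and carry no test.

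**Figure D3:**
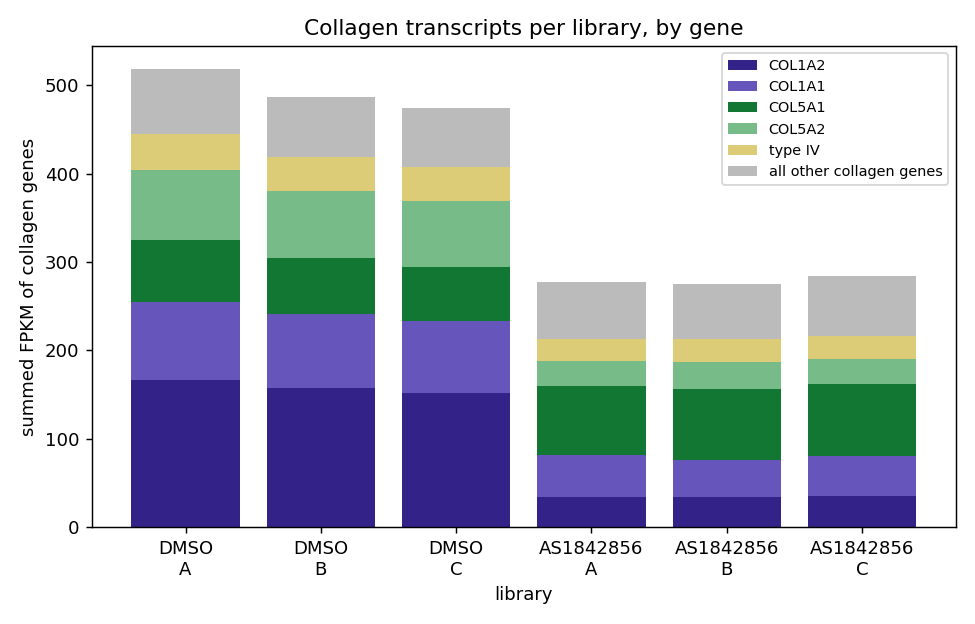
Summed FPKM of the collagen genes in each of the 6 libraries, stacked by gene, with type IV chains pooled and all other collagen genes in grey. COL1A2 is the thickest band in the DMSO libraries, at 32.1% of the collagen FPKM on average, and takes 12.4% with AS1842856, where COL5A1 takes 28.6%.

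Where partner chains of one trimer are encoded by separate genes, their ratio can be taken within each library, so that scaling between libraries has no part in it. Type I collagen is usually built from a pair of alpha1 chains and an alpha2 chain. The FPKM of COL1A1 over that of COL1A2 was 0.537, 0.527 and 0.541 in the DMSO libraries and 1.38, 1.25 and 1.28 in the AS1842856 libraries. The 2 groups did not overlap, and the mean log2 ratio differed by 1.28. For type V, COL5A1 over COL5A2 was 0.867, 0.841 and 0.803 in DMSO and 2.71, 2.71 and 2.88 with AS1842856, a difference of 1.72 in the mean log2 ratio. The change of a ratio does not depend on the lengths used, but its level does. The deposited FPKM used the union of all annotated exons (within 0.643% for all 26 tested genes), which for COL1A1 and COL1A2 is 9.82 and 11.2 kb.

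**Figure D4:**
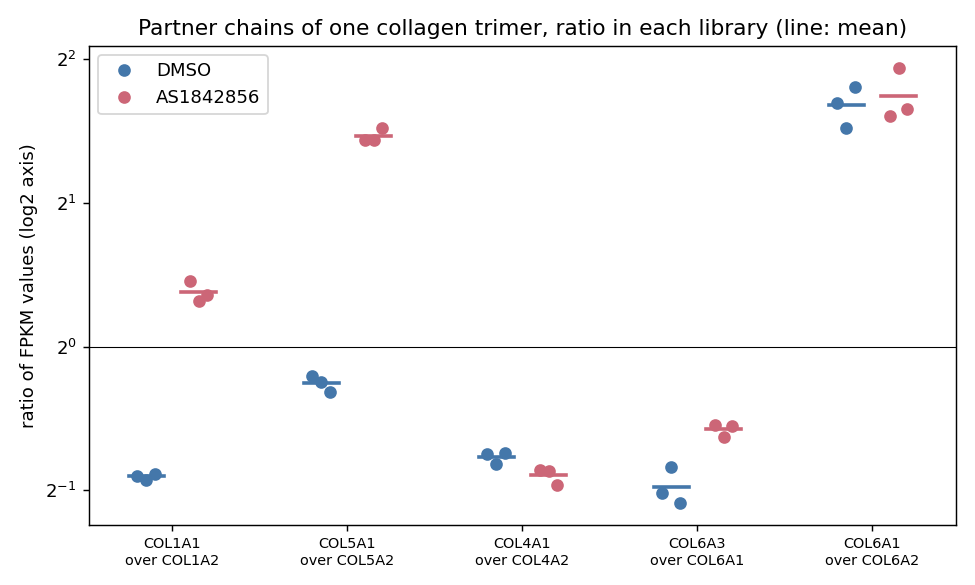
Ratio of deposited FPKM values of partner chains in each library on a log2 axis, with DMSO in blue, AS1842856 in red and lines at the mean (n = 3 per group). The ratios COL1A1 over COL1A2 and COL5A1 over COL5A2 lie below 1 in DMSO and above 1 with AS1842856, while COL6A1 over COL6A2 overlaps between the groups.

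Type IV collagen genes of the basement membrane had 4 of 6 members tested, and 3 fell and none rose. Among all genes tested, 28.4% were called lower, and 4 genes are few to set beside this share. COL4A1 and COL4A2 encode the chains of the most widespread type IV trimer and are transcribed away from each other on chromosome 13. In the RefSeq promoter table (GRCh38.p14) their starts are separated by 126 bases at chr13:110307158-110307283, a stretch that holds both CCAAT and GGGCGG on the plus strand. In GENCODE, coding transcripts of both genes begin inside this stretch, at 110307233 for COL4A1 and 110307236 for COL4A2, so its letters are not shown. A further COL4A2 transcript begins outside it, at 110305812.

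COL4A1 (ENSG00000187498, chromosome 13 from 110148963 to 110307233) had 169, 153 and 162 CPM in DMSO and 96.7, 99.4 and 98.2 CPM with AS1842856, and COL4A2 (ENSG00000134871, chromosome 13 from 110305812 to 110513209) had 371, 352 and 354 CPM and 229, 237 and 250.1 CPM. Both fell with no overlap between groups, with log2 fold changes of -0.72 (SE 0.04, edgeR adjusted p = 1.98e-42) and -0.59 (SE 0.04, edgeR adjusted p = 2.44e-39). Their FPKM ratio ran from 0.568 to 0.600 in DMSO and from 0.514 to 0.552 with AS1842856. It was lower in every treated library than in every control, with a small difference of -0.13 in the mean log2 ratio.

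COL4A5 and COL4A6 form another pair on the X chromosome that is read head to head, 346 bases apart in GENCODE. COL4A5 (ENSG00000188153, chromosome X from 108439844 to 108697545), whose chain joins alpha3 and alpha4 in the kidney and alpha6 elsewhere, went from 105, 101 and 94.9 CPM to 73.0, 77.1 and 76.996 CPM. Its log2 fold change was -0.40 (SE 0.05, edgeR adjusted p = 1.14e-14). COL4A6 had between 87 and 132 counts per library and was not called, with a log2 fold change of -0.20 (within 2 standard errors from -0.51 to 0.10), an interval that includes the value of COL4A5. The remaining pair, COL4A3 and COL4A4, had at most 5 counts in any library and was not tested.

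All 3 tested genes of type VI collagen fell, a small number to set beside the 28.4% of all genes tested called lower. The protein is a trimer of alpha1, alpha2 and alpha3 chains that links cells to the surrounding matrix. COL6A1 (ENSG00000142156, chromosome 21 from 45981737 to 46005050) had 43.4, 38.2 and 39.4 CPM in DMSO and 16.6, 16.7 and 16.5 CPM with AS1842856, a log2 fold change of -1.28 (SE 0.08, edgeR adjusted p = 1.14e-40). Its neighbor on chromosome 21, COL6A2 (ENSG00000142173, chromosome 21 from 46098097 to 46132849), went from 13.5, 13.4 and 11.4 CPM to 5.52, 4.38 and 5.27 CPM, a log2 fold change of -1.35 (SE 0.13, edgeR adjusted p = 8.64e-20). COL6A3 (ENSG00000163359, chromosome 2 from 237324003 to 237414375), on chromosome 2, went from 78.9, 78.6 and 68.1 CPM to 41.9, 39.7 and 41.3 CPM, a log2 fold change of -0.88 (SE 0.06, edgeR adjusted p = 1.84e-37). None of the 3 genes had overlapping groups. The ratio of COL6A1 over COL6A2 overlapped between the groups, from 2.87 to 3.50 in DMSO and from 3.04 to 3.84 with AS1842856, whereas that of COL6A3 over COL6A1 was higher in every treated library (0.647 to 0.687 against 0.470 to 0.560).

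The 3 largest increases were in the FACIT genes COL9A2 and COL16A1 and in COL7A1. COL9A2 (ENSG00000049089, chromosome 1 from 40300487 to 40317813) encodes 1 of the 3 chains of type IX collagen, which coats the type II fibrils of cartilage. It rose from 7.65, 6.45 and 7.48 CPM in DMSO to 35.9, 36.5 and 37.7 CPM with AS1842856, 5.06-fold and the steepest rise among the collagen genes tested (log2 fold change 2.34, SE 0.09, edgeR adjusted p = 3.21e-67). Of the other chains of the trimer, COL9A1 had no count in any library, and COL9A3, which was not called, had between 11 and 20 counts per library and a log2 fold change of -0.04 (within 2 standard errors from -0.85 to 0.77). The exons of COL9A3 overlap those of TCFL5 on the opposite strand by 45 bases, and TCFL5 had 4656 counts in all, so the few counts of COL9A3 are uncertain. The 250 bases before the start of COL9A2 (chr1:40317287-40317536, minus strand, RefSeq on GRCh38.p14) are shown with GGGCGG and its reverse complement in capitals, for the gene that rose most. In GENCODE the outermost coding transcript of COL9A2 starts at 40317294, so that 8 bases of the window are in its exon, while a transcript annotated as retained intron starts further out, at 40317813, and spans the whole window.
COL9A2 RefSeq upstream window: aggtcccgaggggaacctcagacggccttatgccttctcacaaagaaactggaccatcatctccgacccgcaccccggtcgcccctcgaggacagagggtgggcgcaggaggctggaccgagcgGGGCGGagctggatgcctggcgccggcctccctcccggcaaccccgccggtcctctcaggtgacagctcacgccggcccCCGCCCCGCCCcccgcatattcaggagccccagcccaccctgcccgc

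COL16A1 (ENSG00000084636, chromosome 1 from 31652247 to 31704319), a FACIT chain of many tissues, rose from 25.4, 25.3 and 26.3 CPM to 91.6, 89.3 and 94.5 CPM, a log2 fold change of 1.84 (SE 0.06, edgeR adjusted p = 7.77e-87). An antisense gene, AC114488.2, overlaps 1.26% of its exon bases and held 1.26% as many counts. COL12A1 (ENSG00000111799, chromosome 6 from 75084326 to 75206051), a FACIT chain found on type I fibrils, went the other way, from 216, 197 and 184 CPM to 90.2, 78.4 and 81.5 CPM (log2 fold change -1.26, SE 0.05, edgeR adjusted p = 3.38e-39). COL7A1 (ENSG00000114270, chromosome 3 from 48564073 to 48595267) encodes the anchoring fibril that holds epidermis to dermis. Its level was 4.42, 4.10 and 3.44 CPM in DMSO and 14.5, 16.03 and 20.5 CPM with AS1842856, and replicate C was the highest of the treated libraries. The log2 fold change was 2.08 (SE 0.13, edgeR adjusted p = 1.84e-37), and dropping any 1 library moved it no further than 1.93 and 2.18.

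Among the 3 transmembrane collagens tested, 1 fell, 1 rose and 1 was not called. COL13A1 (ENSG00000197467, chromosome 10 from 69801867 to 69964275), found at cell adhesion sites and the neuromuscular junction, went from 9.61, 9.57 and 9.74 CPM to 4.74, 4.95 and 3.87 CPM, a log2 fold change of -1.09 (SE 0.14, edgeR adjusted p = 3.30e-12). COL23A1 had a log2 fold change of 0.31 (SE 0.10, edgeR adjusted p = 0.00615), but it was not called without AS1842856 replicate C (edgeR adjusted p = 0.0649) or by DESeq2 (adjusted p = 0.0508). COL17A1, a component of hemidesmosomes, had between 51 and 104 counts per library and a log2 fold change of -0.13 (within 2 standard errors from -0.50 to 0.24).

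COL18A1 and COL15A1 encode the multiplexins of basement membrane zones, and the end of the COL18A1 protein is released as endostatin. COL18A1 (ENSG00000182871, chromosome 21 from 45405137 to 45513720) had 108, 101 and 96.6 CPM in DMSO and 118, 122 and 129.99 CPM with AS1842856, with no overlap, and rose by 0.28 on the log2 scale (SE 0.04, edgeR adjusted p = 6.08e-09). Its exons share 1401 bases with SLC19A1, which is read from the other strand, held 88.7% as many counts as COL18A1 and had a log2 fold change of -0.07 (edgeR adjusted p = 0.209), so part of the COL18A1 reads is uncertain. COL15A1 fell, with a log2 fold change of -0.34 (SE 0.07, edgeR adjusted p = 2.61e-05), which was -0.21 (edgeR adjusted p = 0.0131) without DMSO replicate A. COL8A1 (ENSG00000144810, chromosome 3 from 99638475 to 99799226), a short chain of the hexagonal lattice in vessel walls and the cornea, had 16.03, 19.5 and 15.7 CPM in DMSO and 14.9, 12.9 and 11.8 CPM with AS1842856. Its fall of 0.37 on the log2 scale (edgeR adjusted p = 0.00094) was -0.23 and not called by limma on log2(FPKM + 1) (adjusted p = 0.0564).

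Of the 18 collagen genes that were not tested, 4 (COL6A5, COL9A1, COL11A1 and COL22A1) had no count in any library, 4 (COL2A1, COL5A3, COL6A6 and COL26A1) had 1 to 3 counts in all, and the remaining 10 had up to 33. Type II, the collagen of cartilage, was represented by 1 count of COL2A1. COL8A2, the usual partner of COL8A1, had 4, 5 and 7 counts in DMSO and 0 in each AS1842856 library, and was singled out after its values were seen. Taking 3 counts over the treated group as the limit, the pooled DMSO level of COL8A2 was 5.47-fold above that limit. This leaves out the counting error of the few DMSO counts, so it is not a lower bound of the change. With no filter on low counts the adjusted p of COL8A2 was 0.00340 in edgeR, and it was 0.00868 in DESeq2. The counts of COL14A1, a FACIT chain, were 1, 1 and 2 in DMSO and 0, 12 and 7 with AS1842856, and those of COL10A1 were 6, 4 and 0 in DMSO and 2, 0 and 0 with AS1842856. At such depth no difference could be read for these genes.

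Position on the chromosome was set beside the changes, as a feature that the choice by name did not use. COL3A1 and COL5A2 lie tail to tail on chromosome 2, 19149 bases apart, and both fell, with log2 fold changes of -1.29 and -1.42. COL6A1 and COL6A2, 93046 bases apart on chromosome 21, also both fell, while COL18A1, 468016 bases before COL6A1, rose. Adjacent collagen pairs no more than 468016 bases apart were taken. Among the 22 collagen genes called, 15 fell. Of the pairs with both genes called, 3 (with COL4A1 and COL4A2) fell together and 1 moved apart. This is a description of a few pairs, and no test was made.

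RefSeq promoter windows, from 250 bases before to 50 bases after a start, were found for 32 of the 44 collagen genes (44 windows) and for 19 of the 26 tested ones. The tested genes without a window were COL1A1, COL1A2, COL3A1, COL5A2, COL6A1, COL8A1 and COL9A3. These genes, which include COL1A2, the one that fell most, were therefore not searched. Searched on both strands, GGGCGG occurred in 24 of the 44 collagen windows (54.5%) and in 44.95% of all 35116 windows in the table. CCAAT occurred in 14 collagen windows (31.8%) and in 34.6% of all windows. GTAAACA, a sequence that FOXO proteins can bind, and CTTTGAT, one that TCF and LEF proteins can bind, were in 0 of the 44 collagen windows, against 3.42% and 2.62% of all windows. No matched letters in these windows say only that the letters are absent there. The RefSeq upstream window of COL6A2 is set beside that of COL9A2 because the genes moved in opposite directions and both windows hold GGGCGG on both strands (chr21:46097862-46098111, plus strand, GRCh38.p14). The last 15 bases of the COL6A2 window lie in a GENCODE transcript that starts at 46098097.
COL6A2 RefSeq upstream window: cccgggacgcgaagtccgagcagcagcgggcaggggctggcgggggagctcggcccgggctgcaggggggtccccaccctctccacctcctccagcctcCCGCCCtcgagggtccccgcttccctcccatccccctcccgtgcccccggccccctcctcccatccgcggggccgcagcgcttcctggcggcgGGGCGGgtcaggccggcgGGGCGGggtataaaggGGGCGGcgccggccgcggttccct

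The repeat lengths of genes that rose and genes that fell overlapped. Among the 7 genes that rose, the longest run of GGN triplets was between 30 and 338 with a median of 75, and among the 15 that fell it was between 30 and 343 with a median of 66. COL5A1 and COL5A2, with runs of 338 and 339 triplets, moved in opposite directions. Exons of 54 bases numbered 2 to 33 in the genes that rose and 0 to 33 in those that fell.

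Genes that process and carry collagen were taken from a list of 35, of which 33 were tested. Of these, 13 rose and 18 fell, with a median log2 fold change of -0.21. Over all genes tested, 56% were called, 27.6% as higher and 28.4% as lower. Called changes of 1 or more on the log2 scale were found in 7 of the listed genes, against 10.6% of all genes tested. ADAMTS14 and ADAMTS2 both encode proteinases that remove the amino-terminal propeptide of procollagen. ADAMTS14 had 3.64, 4.95 and 5.22 CPM in DMSO and 78.7, 78.2 and 83.5 CPM with AS1842856 (log2 fold change 4.14, SE 0.08, edgeR adjusted p = 1.73e-126). ADAMTS2 had 15.03, 14.9 and 15.6 CPM and 2.82, 2.72 and 2.97 CPM (log2 fold change -2.42, SE 0.14, edgeR adjusted p = 1.06e-42), so that these related enzymes moved in opposite directions. ADAMTS3, which has the same role, also fell, with a log2 fold change of -1.19. TLL1, a proteinase of the tolloid family, which trims the other end, rose from 0.364, 0.456 and 0.484 CPM to 5.28, 5.43 and 6.0004 CPM, a log2 fold change of 3.67 (SE 0.28, edgeR adjusted p = 1.21e-28). BMP1, the more abundant proteinase of that family, fell from 103, 93.1 and 101 CPM to 82.8, 81.6 and 82.2 CPM, a log2 fold change of -0.28 (SE 0.05, edgeR adjusted p = 4.96e-08). ADAMTS3 and BMP1 were named after their values were seen. LOX, the lysyl oxidase that starts the crosslinking of fibrils, fell from 212, 211 and 204 CPM to 45.1, 42.3 and 41.2 CPM, a log2 fold change of -2.29 (SE 0.05, edgeR adjusted p = 1.39e-128).

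Of 10 genes for cell-surface collagen receptors, 6 were tested, 5 fell and none rose, with a median log2 fold change of -0.45. Among all genes tested, 28.4% were called lower and 27.6% higher, and 6 genes are few to set beside these shares. ITGA10, the integrin chain of chondrocytes, had the largest fall, from 11.4, 11.4 and 9.90 CPM to 4.02, 3.85 and 4.77 CPM (log2 fold change -1.38, SE 0.14, edgeR adjusted p = 2.48e-18). The receptor tyrosine kinases DDR2 and DDR1 had log2 fold changes of -0.62 and -0.46, and MRC2, which takes up collagen for degradation, had -0.43. ITGB1, the beta chain shared by these integrins, was the fifth and had -0.29; it was named after its value was seen. ITGA2 was not called, with a log2 fold change of 0.87 (edgeR adjusted p = 0.136) and between 0.137 and 0.920 CPM. No test was made of the lists as lists.

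**Figure D5:**
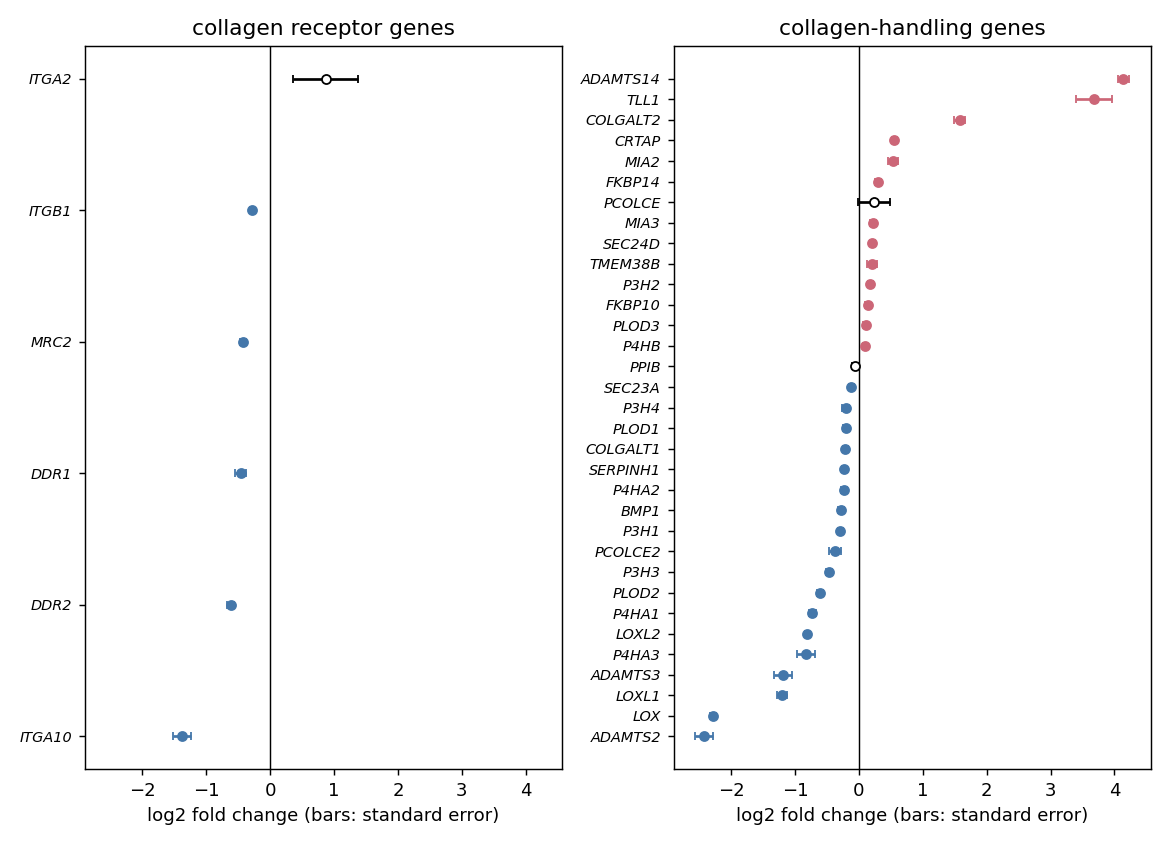
Log2 fold change of the tested collagen receptor genes (left) and collagen-handling genes (right), with bars of 1 standard error; red points were called higher, blue points lower and open points were not called in edgeR's test. ADAMTS14 and TLL1 lie furthest to the right, at 4.14 and 3.67, and ADAMTS2 and LOX furthest to the left, at -2.42 and -2.29.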

How the data were processed

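RNA-Seq of BT549 cells was analysed for 3 DMSO and 3 AS1842856 libraries, grouped by the treatment in the sample labels. Raw counts per gene were deposited by the authors, together with FPKM values for each library. For mapping, the text of the study names STAR, whereas the submitters' processing notes name CASAVA, Bowtie 0.12.2 and GRCh38. Which mapper gave the counts was not resolved. The counting tool and the use of strand are not given in the sources used here. All 58735 identifiers were found in GENCODE release 29 (Ensembl 94, GRCh38), which gave symbols, exons and positions. 

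The test was the quasi-likelihood F test of edgeR 4.0.16 (R 4.3.3; robust, no block, filterByExpr with minimum count 10 and minimum total 15, TMM), with Benjamini-Hochberg adjustment over 14338 genes and a threshold of 0.05. The study used DESeq2, run here as an alternative (1.42.0). Standard errors are the size of the log2 fold change divided by the square root of F. CPM were scaled with TMM, and limits of 3 counts cover counting error only. TMM factors were between 0.995 and 1.01. The alternatives were DESeq2, its size factors or library totals in edgeR, no filter or a minimum mean of 50 counts, limma 3.58.1 on log2(FPKM + 1) and log2(FPKM + 0.1), a replicate block, and each library left out. Fits were tested on simulated data. Replicate pairs differed by more than sampling noise (chi-square divided by its degrees of freedom, 2.32 to 3.12).

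Collagen genes named with values in every library were those called with a log2 fold change of at least 1 in size. Also given in this way were the 6 of highest mean FPKM and tested partner chains. Of the other lists, the 4 called genes of largest change were named, with DDR2, DDR1 and MRC2 by log2 fold change alone. Collagen genes were taken by symbol and the other lists were written from general knowledge, but the choice of this family and these lists was made with earlier results of these data known, so none is independent of them. Promoters are from RefSeq (GRCh38.p14), coding runs from the longest GENCODE coding transcript of each gene. Protein sequences were not used here.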

Additional observations from a re-analysis of the deposited data

How the results depend on the processing

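The number of collagen genes called was 22 and lay between 20 and 23 under the 9 alternatives that kept all libraries, and between 21 and 22 when single libraries were dropped. The number called over all genes (8029) lay between 6453 and 8030, or 7427 and 7678 with a library dropped. The genes lost were COL23A1 (DESeq2, limma on all listed genes, and without AS1842856 replicate C), COL8A1 (all fits on FPKM) and COL15A1 (limma on log2(FPKM + 1) for all listed genes, adjusted p = 0.103), and the gene gained was COL8A2. DESeq2 called 22 collagen genes, of which 21 were among the calls of edgeR and had unchanged signs. Of 384 values of the 26 log2 fold changes under other settings, 375 kept direction and call, 7 lost the call and 2 changed sign. The 12 collagen genes with a called change of 1 or more became 7 on log2(FPKM + 1), with the 5 others between 0.58 and 0.89 in size, and 11 without AS1842856 replicate C (COL13A1). Both sign changes were in COL9A3, which is not called and too shallow to place, at 0.08 without DMSO replicate A and 0.10 without AS1842856 replicate C, over a leave-one-out range from -0.14 to 0.10. The difference of the collagen share between the groups was -0.0834 percentage points of FPKM, -0.229 as a share of raw counts, where long transcripts weigh more, and -0.0354 without COL1A2; dropping single libraries gave values between -0.0873 and -0.0794. With the replicate letter as a replicate block, 7862 genes and the same 22 collagen genes were called. Deviations of same-lettered libraries correlated at 0.0420, -0.0120 and -0.00332, against -0.0278 to 0.0297 for libraries of different letters. No shared effect of the letter was seen in these values. They cannot tell whether same-lettered libraries were handled together. Counts called among collagen-handling genes (31) lay between 26 and 31 and among receptors (5) between 5 and 6. Depth limits the 18 collagen genes under the filter.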

Other observations

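Of 9 genes whose symbols begin like those of collagen genes but go on, such as antisense genes and pseudogenes, 2 were tested. COL5A1-AS1, an antisense gene at the COL5A1 locus whose exons do not overlap those of COL5A1, had 7, 4 and 8 counts in the DMSO libraries and 38, 47 and 41 in the AS1842856 libraries. It rose by 2.68 on the log2 scale (edgeR adjusted p = 3.03e-10), where COL5A1 itself had 0.31. Both were higher in 3 of 3 AS1842856 libraries, and the use of strand in counting is not known. COL4A3BP, which encodes a ceramide transfer protein and no collagen, fell with a log2 fold change of -0.34 (edgeR adjusted p = 2.38e-07). The remaining 7 had at most 17 counts in all.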
